A study of Mus musculus with 8 samples.

Results

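The scavenger and mannose receptors described here are 10 genes: Mrc1, Msr1, Marco, Cd163, Stab1, Scarb1, Cd5l, Folr2, Timd4 and Axl. They were chosen by name, and all 10 were found among the 18125 genes that the tables of the series list. RNA was sequenced from 8 mouse macrophage cultures on the C57BL/6 background, 1 library for each group. Thioglycollate-elicited peritoneal macrophages (PM), drawn by an injection of 1 ml of 4% thioglycollate, came from wild-type (WT) mice or from Slc6a8-/y mice, called KO here, and were left untreated or exposed for 12 hours to IFN-gamma (10 ng/mL). Macrophages grown from bone marrow (BMDM) of the same 2 genotypes had 5 days in 10% M-CSF and were left untreated or exposed for 6 hours to IL-4 (10 ng/mL). The labels state no age, name 1 library for each group, and do not tell whether libraries of a genotype share an animal. Slc6a8 carries creatine into cells, and the study concerns polarization of macrophages that lack it.

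Macrophages clear particles, lipoproteins, glycoproteins and dying cells through surface receptors with broad ligand ranges. Mrc1, the mannose receptor, takes up glycoproteins that end in mannose or fucose and is a widely used marker of the IL-4 state. Msr1 and Marco are collagen-containing class A scavenger receptors for modified lipoproteins and microbes. Cd163 takes up haemoglobin bound to haptoglobin, Folr2 is a folate receptor of macrophages, Stab1 (stabilin-1) is an endocytic clearance receptor and Scarb1 exchanges cholesterol with high-density lipoprotein. Cd5l is a secreted scavenger-domain protein of tissue macrophages. Timd4 binds phosphatidylserine on dying cells, and Axl is a receptor tyrosine kinase that binds them through its ligand Gas6. Timd4 is best known from resident peritoneal macrophages.

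Promoter sequence was available from RefSeq (GRCm38.p6, the assembly also called mm10) for 8 of the 10 genes, and is shown for Mrc1, Stab1 and Timd4 because these 3 had the clearest cytokine responses of the receptors with a usable upstream stretch: Mrc1 moved in opposite directions in the 2 stimulated cell types, Stab1 was lower after each cytokine, and Timd4 was nearly undetected without IFN-gamma. Each is written 5′ to 3′ on the strand of the gene, starts 250 bases before the RefSeq start site and ends before the first annotated transcribed base. Mrc1 is chr2:14229164-14229391 on the plus strand, Stab1 is chr14:31168652-31168891 on the minus strand and Timd4 is chr11:46810549-46810785 on the plus strand. Capitals mark the PU.1 core GAGGAA or its reverse complement TTCCTC, the core bound by a factor that macrophages depend on.
Mrc1: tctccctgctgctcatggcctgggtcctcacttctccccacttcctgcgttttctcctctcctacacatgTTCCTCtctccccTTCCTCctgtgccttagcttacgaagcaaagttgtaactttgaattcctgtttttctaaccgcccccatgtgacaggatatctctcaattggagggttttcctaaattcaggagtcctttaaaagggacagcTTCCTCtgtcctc
Stab1: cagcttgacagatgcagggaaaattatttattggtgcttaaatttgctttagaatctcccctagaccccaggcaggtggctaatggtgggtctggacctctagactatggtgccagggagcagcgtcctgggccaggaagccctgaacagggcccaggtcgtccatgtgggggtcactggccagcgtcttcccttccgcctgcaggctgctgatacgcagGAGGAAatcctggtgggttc
Timd4: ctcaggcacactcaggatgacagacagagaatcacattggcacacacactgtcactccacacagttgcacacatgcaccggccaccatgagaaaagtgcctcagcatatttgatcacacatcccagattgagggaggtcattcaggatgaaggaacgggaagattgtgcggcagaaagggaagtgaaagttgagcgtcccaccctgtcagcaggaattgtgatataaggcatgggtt
Mrc1 held the core 3 times, all on the opposite strand, with the nearest ending 30 bases before the start site. Stab1 held it once, and Timd4 not at all. Over windows from 250 bases before to 50 after the start, on both strands, the core was also found in Marco, Cd5l and Axl, against 28.3% of all 32851 promoters. A STAT6-type motif (TTCNNNNGAA) was found in Cd5l only, against 6.95% of all promoters. An interferon response motif (GAAANNGAAA, 3.44% of all promoters) and the LXR-type direct repeat of AGGTCA spaced by 4 bases (0.0152%) were found in none of the 8 genes. No matches of different motifs overlapped in these windows. A match describes letters in a window and is not a binding site.

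Total expected counts were 10812678 to 11065427 in PM libraries and 20553654 to 21221526 in BMDM libraries. Levels are in FPKM, fragments scaled to the length of the transcript and the total of the library, so that genes can be compared within a library. Slc6a8 itself was at 39.52 to 163.54 FPKM in WT PM and 0.18 to 0.73 FPKM in KO PM, and at 87.92 to 97.34 against 1.15 to 1.71 FPKM in BMDM. All 12 macrophage identity genes were listed in every library, with summed levels of 7109.14 to 15893.03 FPKM. Fits by edgeR (quasi-likelihood test, Benjamini-Hochberg adjustment over all genes tested, called below 0.05) set 2 libraries against 2, so each estimate pools the genotypes or the treatments and its SE comes from 1 residual degree of freedom with sharing across genes. Ratios between 2 single libraries have no replicate check; their intervals cover counting error only. In bulk RNA, fewer cells of a type and less RNA per cell cannot be told apart.

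The 2 macrophage types carried these receptors at different levels. In BMDM the order by mean FPKM over the 4 libraries was Folr2 (446), Stab1 (165), Mrc1 (133), Msr1 (60.5), Scarb1 (44.3), Cd5l (40.1), Axl (30.2), Cd163 (2.17) and Marco (0.158), with Timd4 in none of the 4 tables. In PM it was Axl (87.9), Msr1 (40.4), Scarb1 (28.7), Mrc1 (19.5), Folr2 (10.1), Cd5l (4.47), Stab1 (3.49), Timd4 (3.41), Marco (2.06) and Cd163 (0.188). These means mix untreated and stimulated libraries, and many neighbours overlapped. In BMDM the ranges were separate between Folr2 and Stab1, between Msr1 and Scarb1, and around Cd163 and Marco. In PM they were separate between Msr1 and Scarb1 and between Marco and Cd163. Summed over the 10 genes the level was 123.39 to 318.19 FPKM in PM libraries and 763.6 to 1084.21 FPKM in BMDM libraries.

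**Figure D1:**
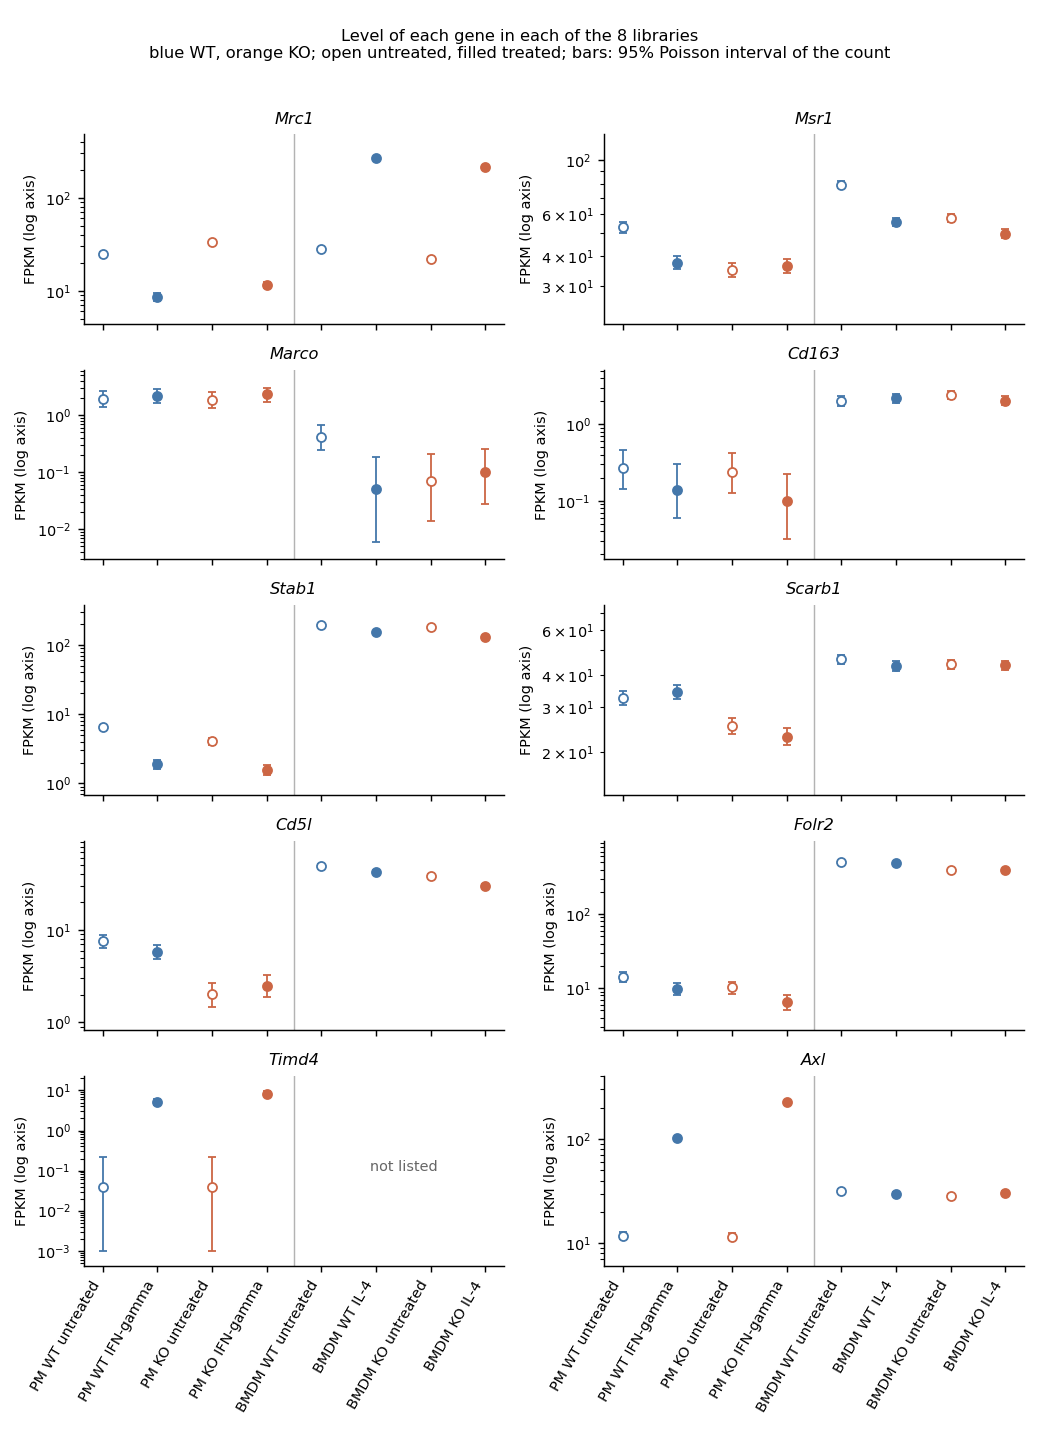
FPKM of each gene (log axis, scaled for each panel) in the 8 libraries, 1 point a library; bars are 95% Poisson intervals of the counts. Folr2, Stab1, Cd5l, Cd163 and, by a smaller gap, Scarb1 sit higher in all 4 BMDM libraries than in all 4 PM libraries. Marco sits lower, and Timd4 is not listed in BMDM.

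Folr2 (chr7:101839988-101857190) and Stab1 (chr14:31139017-31168651) showed the widest gap between the cell types. In untreated PM Folr2 stood at 14.04 FPKM (WT) and 10.2 FPKM (KO), and at 509.88 and 389 FPKM in untreated BMDM. Stab1 stood at 6.51 and 4.03 FPKM in untreated PM and at 192.78 and 181.57 FPKM in untreated BMDM. The highest PM library was far below the lowest BMDM library for each gene. By edgeR on the untreated libraries, Folr2 was 32.2-fold higher in BMDM (log2 5.01, SE 0.14, adjusted p = 1.36e-12) and Stab1 was 31.5-fold higher (log2 4.98, SE 0.18, adjusted p = 1.3e-11). Of 10994 genes, Folr2 was the one whose centred profile over the 8 libraries lay nearest to that of Stab1, at a root mean square distance of 0.29 on the log2(FPKM + 1) scale, against a spread of 2.70 for Stab1 itself. That nearness rests mainly on the gap between the cell types, which the 4 libraries on each side share.

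Over the other receptors, Cd5l was 8.55-fold higher in BMDM (log2 3.10, SE 0.24, edgeR adjusted p = 3.85e-08), with 7.54 and 2.02 FPKM in WT and KO untreated PM against 49.51 and 38.27 FPKM in BMDM. Cd163 was 7.46-fold higher (log2 2.90, SE 0.28, edgeR adjusted p = 6.01e-07), from 0.27 and 0.24 FPKM (13 and 12 counts) to 2.03 and 2.43 FPKM (191 and 229 counts). Axl was 2.28-fold higher, Msr1 1.4-fold higher and Scarb1 1.36-fold higher by the same fit, with adjusted p-values of 3.18e-07, 0.00231 and 0.00493. Marco ran the other way and was 9.48-fold lower in BMDM (log2 -3.25, SE 0.48, edgeR adjusted p = 4.69e-05). It was listed at 1.91 and 1.85 FPKM in untreated PM, and at 0.41 and 0.07 FPKM in untreated BMDM, where it rests on 17 and 3 counts. Mrc1 was close in both types, 24.84 and 33.18 FPKM in untreated PM and 28.07 and 22.19 FPKM in untreated BMDM. Its fitted difference was 1.32-fold lower in BMDM (log2 -0.41, SE 0.14, edgeR adjusted p = 0.0253), a call that DESeq2 and limma did not make (adjusted p up to 0.226). In WT alone Mrc1 was 1.13-fold higher in BMDM by counts (exact interval 1.06 to 1.20), and in KO it was at 0.669 of the PM level (0.63 to 0.71).

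In all, 7 of 9 tested receptors were higher in BMDM and 2 were lower, where 27.4% of all genes tested were called higher and 27.4% lower. Their median log2 difference was 1.19, against 0.01 over all genes. Cell origin, elicitation, culture and sequencing depth all separate PM from BMDM and cannot be told apart here. Of other lists, 4 of 15 tested scavenger receptors were higher in BMDM and 4 lower, among them Cd36, the fatty acid and lipoprotein receptor, which was 9.28-fold lower (SE 0.16 on the log2 scale, edgeR adjusted p = 3.65e-10). Of the other genes of resident macrophages, 2 of 10 were higher and 6 were lower; Vsig4, a complement receptor of resident macrophages, was listed at 5.93 and 2.71 FPKM in untreated PM of WT and KO and at 0.03 FPKM or below in untreated BMDM. Among linked transcription factors, 5 of 17 were higher, Maf among them (3.3-fold, edgeR adjusted p = 7.05e-09), and 6 were lower.

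General macrophage genes and markers of other cells also differed between the cell types. Of the 12 macrophage identity genes 8 were higher in BMDM and 2 lower, with a median log2 difference of 1.43, above that of the receptors. Fcgr1, a high-affinity IgG receptor, was 20.77-fold higher, Aif1 18.32-fold and Adgre1, the F4/80 antigen, 8.39-fold (edgeR adjusted p = 4.67e-11, 2.9e-07 and 1.65e-10). Their summed level was 11795.51 and 9813.48 FPKM in untreated PM of WT and KO, and 15690.66 and 15893.03 FPKM in untreated BMDM. Monocyte genes were called 3 higher and 1 lower of 4, with Ccr2, a chemokine receptor, 103.81-fold higher (edgeR adjusted p = 1.07e-11). Fibroblast and mesothelium genes were called 3 higher and 3 lower of 6, with Krt19 39.06-fold and Dcn 9.69-fold lower (edgeR adjusted p = 3.46e-06 and 4.28e-11). The fit held only genes listed in both cell types, which left out Upk3b, Lrrn4 and Wt1. In untreated PM of WT and KO, Upk3b was at 7.18 and 6.34 FPKM, Lrrn4 at 7.8 and 7.27 FPKM and Wt1 at 5.53 and 6.12 FPKM. Each was at 0 in every BMDM library. Col1a1 went the other way, with 32.91 and 30.66 FPKM in untreated PM and 208.73 and 109.59 FPKM in untreated BMDM. The summed level of the list in untreated cells was 149.52 and 139 FPKM in PM and 376.19 and 200.57 FPKM in BMDM. All 3 tested B cell genes and both tested genes of eosinophils, basophils and mast cells were lower in BMDM, with Siglecf 16.17-fold lower (edgeR adjusted p = 4.51e-09). The B cell sum was 3.66 to 6.11 FPKM in PM and 0.84 to 1.22 FPKM in BMDM. Endothelial genes were called 2 higher of 5, T and NK cell genes 1 higher of 2, neutrophil genes 1 higher and 2 lower of 4, and the 1 dendritic cell gene tested was not called. The part of these cells in the receptor differences was not tested.

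IFN-gamma raised the apoptotic cell receptors Axl and Timd4 in PM and lowered Mrc1 and Stab1. Axl (chr7:25756500-25788924) was at 11.77 FPKM in untreated WT cells, 102.25 FPKM in treated WT cells, 11.51 FPKM in untreated KO cells and 226.25 FPKM in treated KO cells. The untreated libraries were nearly equal, and the treated ones lay far above them. Over both genotypes Axl rose 13.97-fold (log2 3.80, SE 0.30, edgeR adjusted p = 0.00042). The rise was 8.71-fold by counts in WT (exact interval 8.02 to 9.47) and 19.6-fold in KO (18.1 to 21.2). After IFN-gamma Axl was the highest of the 10 receptors, with 49.3% of their summed level in WT and 71.1% in KO.

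Timd4 (chr11:46810786-46844333) was at 0.04 FPKM in each untreated PM library, from 1 count, and reached 5.19 FPKM (WT) and 8.37 FPKM (KO) with IFN-gamma, from 125 and 200 counts. It was the receptor with the lowest untreated level and the only 1 of the 10 that no BMDM table listed. The edgeR fit put the rise at log2 7.26 (SE 0.35, adjusted p = 7.29e-05), a size that depends on a single count in each untreated library. By counts the ratio was 122-fold in WT (exact interval 21.5 to 4863) and 199-fold in KO (35.3 to 7905). The 3 genes with the profile nearest to Timd4 were Sod2, the mitochondrial superoxide dismutase, Tnfsf15, a TNF-family cytokine, and Gm12185, at distances of 0.10, 0.11 and 0.13. For Axl they were Nlrc5, an activator of MHC class I genes, Nfkbie, an NF-kB inhibitor, and Mndal, at 0.25 to 0.27. These distances are on the log2(FPKM + 1) scale, where the rise of Timd4 was 2.57 in WT and 3.17 in KO. The added 1 shrinks changes from low levels, so a near profile need not have a similar fold change or level. Sod2 ranged from 14.19 to 163.23 FPKM over the 8 libraries.

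Mrc1 (chr2:14229414-14332023) went down with IFN-gamma in WT from 24.84 to 8.59 FPKM, and in KO from 33.18 to 11.48 FPKM. Both treated libraries lay below both untreated ones. The fall was 2.70-fold over both genotypes (log2 -1.43, SE 0.10, edgeR adjusted p = 0.000255), and the count ratio was 0.346 in each genotype (exact intervals 0.312 to 0.383 and 0.317 to 0.378). Stab1 fell from 6.51 to 1.88 FPKM in WT and was at 4.03 and 1.56 FPKM in KO, a 2.82-fold fall in the fit (log2 -1.5, SE 0.16, edgeR adjusted p = 0.00115). These 4 calls held in all 5 fits run.

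The remaining 6 receptors did not pass the test for IFN-gamma. Folr2 was closest, at 14.04 and 9.68 FPKM in WT and 10.2 and 6.45 FPKM in KO (log2 -0.50, SE 0.15, edgeR adjusted p = 0.054); limma on log2(FPKM + 1) called it at 0.0202 and DESeq2 did not, at 0.566. Cd163 had 13 and 12 counts untreated and 7 and 5 counts treated (log2 -0.98, edgeR adjusted p = 0.147), which limits what this test can show. Marco was at 1.85 to 2.3 FPKM in all 4 PM libraries. Msr1 read 52.69 and 37.58 FPKM in WT but 35.08 and 36.25 FPKM in KO, and Scarb1 stayed between 22.92 and 34.29 FPKM. Cd5l was at 7.54 and 5.82 FPKM in WT and 2.02 and 2.51 FPKM in KO. The edgeR adjusted p-values of Marco, Msr1, Scarb1 and Cd5l were 0.315, 0.74, 0.646 and 0.935. Thus 2 of 10 receptors were higher, where 17.2% of the 12052 genes tested were, and 2 were lower, where 14.9% were, so these shares lie near the background. The median log2 change was -0.05, against -0.01 over all genes. As pairs of single libraries, 4 of 9 receptors differed at least 2-fold in WT (10.5% of 10670 genes did) and 3 of 9 in KO (13.9%). The treated libraries of each genotype share no control, but every fitted term uses all 4.

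**Figure D2:**
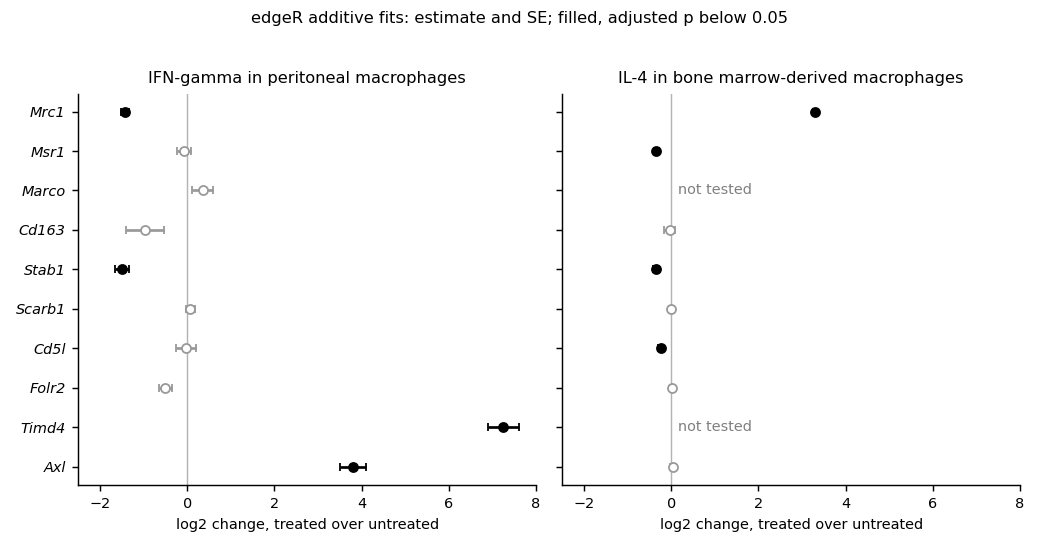
Log2 change (horizontal axis) of each gene under IFN-gamma in PM and IL-4 in BMDM, with SE bars from the edgeR fit; filled points were called. Mrc1 lies at -1.43 under IFN-gamma and at 3.30 under IL-4. Timd4 and Axl lie at 7.26 and 3.80 under IFN-gamma, and Axl lies at 0.03 under IL-4. Timd4 and Marco were not tested in BMDM. Cytokine, cell type and hours of exposure differ together between the 2 terms and cannot be told apart.

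The genes around Axl and Timd4 in the uptake of dying cells did not move as a block. Of the 14 tested, 5 rose and 6 fell. Pros1 (protein S), a ligand of the receptor tyrosine kinases of the Axl family, moved in WT from 17.42 to 88.26 FPKM, and in KO from 16.57 to 92.93 FPKM (log2 2.51, SE 0.11, edgeR adjusted p = 5.46e-05). Gas6, the ligand of Axl, went from 23.64 to 4.34 FPKM and from 20.78 to 3.12 FPKM (log2 -2.49, SE 0.13, edgeR adjusted p = 9.35e-05). Receptor and ligand thus moved in opposite directions in each genotype. Itgb3, an integrin chain that binds dying cells through bridging proteins, fell in WT from 6.26 to 0.4 FPKM, and in KO from 8.51 to 0.44 FPKM (log2 -4.03, SE 0.16, edgeR adjusted p = 3.99e-05). Mertk, a receptor of the same family as Axl, named after its values were seen, moved in WT from 21.98 to 55.84 FPKM, and in KO from 24.68 to 84.98 FPKM (log2 1.66, SE 0.14, edgeR adjusted p = 0.000593).

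**Figure D3:**
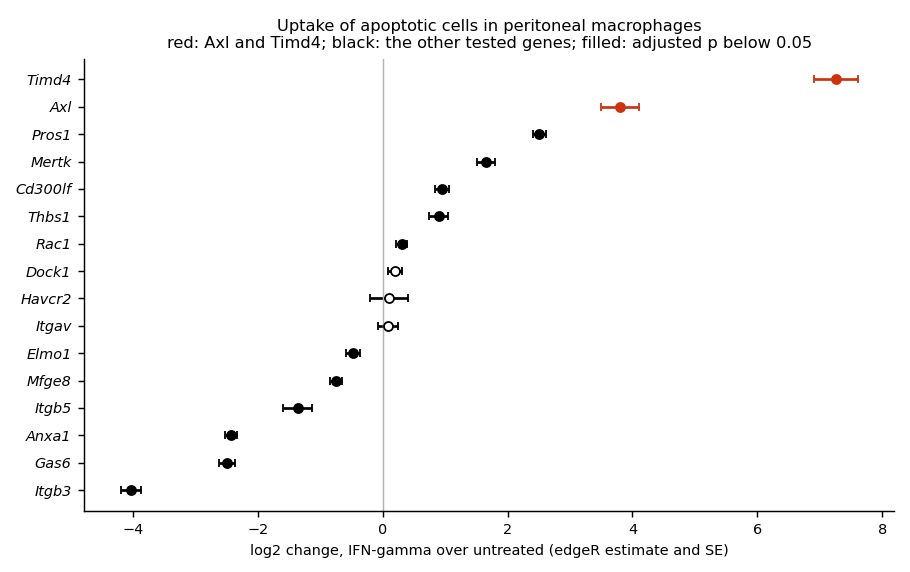
Log2 change with IFN-gamma in PM (horizontal axis, edgeR estimate with SE bars) of Axl, Timd4 and the 14 tested genes of apoptotic cell uptake. Timd4, Axl, Pros1 and Mertk lie at 1.66 or above, while Gas6, Anxa1 and Itgb3 lie at -2.42 or below.

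Other scavenger receptors were split as well, with 3 of 12 higher and 3 lower after IFN-gamma. Cxcl16, a chemokine that also binds oxidized lipoprotein, rose in WT from 21.75 to 114.95 FPKM, and in KO from 23.34 to 205.24 FPKM (log2 2.87, SE 0.20, edgeR adjusted p = 0.000285). Cd36 fell from 554.26 to 217.85 FPKM and from 713.74 to 174.74 FPKM (log2 -1.59, SE 0.16, edgeR adjusted p = 0.000977). Of Mrc1's relatives, Mrc2 fell by 0.80 and Ly75 rose by 0.65 on the log2 scale (edgeR adjusted p = 0.0427 and 0.0488), of 4 tested. In haem and folate handling 1 of 9 rose and 2 fell; Hmox1, the haem-degrading enzyme, fell 1.77-fold (edgeR adjusted p = 0.00187). Among the linked transcription factors 5 of 17 rose and 4 fell: Irf8 was 9.65-fold higher and Pparg, a lipid-sensing receptor, 3.91-fold lower (edgeR adjusted p = 3.29e-05 and 0.000472).

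Markers of other cells moved with IFN-gamma. The summed level of 8 dendritic cell genes was 0.77 and 0.95 FPKM in untreated WT and KO PM and 31.69 and 15.57 FPKM after treatment, with Clec9a at 30.71 and 14.09 FPKM; Flt3 was at 0 in all 4 PM libraries, and no other gene of the list reached 1 FPKM. The summed level of 6 monocyte genes was 6.71 and 7.5 FPKM before and 22.33 and 17.63 FPKM after. Of these lists 2 of 3 and 3 of 6 tested genes rose, and 1 monocyte gene fell. Fibroblast and mesothelium genes summed to 149.52 and 139 FPKM before and 122.27 and 93.7 FPKM after, with 4 of 9 lower. Endothelial genes summed to 14.28 and 21.46 FPKM before and 5.27 and 10.69 FPKM after. Both tested genes fell, Kdr 2.52-fold and Vwf 1.94-fold (edgeR adjusted p = 0.0115 and 0.00139). Kdr and Vwf made up most of each sum, and every other endothelial gene was at 0.34 FPKM or below in PM, with Emcn and Cldn5 at 0. T and NK cell genes summed to 0.79 and 1.5 FPKM before and 2.25 and 4.05 FPKM after, and Cd3d, 1 of 2 tested, rose 5.59-fold (edgeR adjusted p = 0.00474). Neutrophil genes were called 1 higher and 1 lower of 3. B cell genes and those of eosinophils, basophils and mast cells were called 0 of 4 and 0 of 2. The macrophage identity genes were called 4 higher and 4 lower of 12. The part of these cells in the receptor changes was not tested.

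IL-4 raised Mrc1 in BMDM and moved the other receptors little. Mrc1 was at 28.07 FPKM in untreated and 266.33 FPKM in treated WT cells, and at 22.19 and 214.94 FPKM in KO cells. In the treated libraries it stood above 98.6% and 98.1% of the listed genes, and the groups were far apart. The fit gave a 9.85-fold rise (log2 3.30, SE 0.05, edgeR adjusted p = 3.03e-10), and the count ratio was 9.49 in WT (exact interval 9.15 to 9.85) and 9.69 in KO (9.30 to 10.10). The responses of the 2 genotypes differed by 0.02 on the log2(FPKM + 1) scale, and their counting intervals overlapped. The genes with profiles nearest to Mrc1 over the 8 libraries were Ptgs1, a cyclooxygenase, Tfrc, the transferrin receptor, and Tbc1d16, at distances of 0.50, 0.55 and 0.59.

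Stab1, Msr1 and Cd5l fell with IL-4, each by less than 1.3-fold in the fit. Stab1 moved in WT from 192.78 to 153.46 FPKM, and in KO from 181.57 to 130.7 FPKM (log2 -0.36, SE 0.05, edgeR adjusted p = 0.000584). Msr1 went from 79.23 to 55.49 FPKM and from 57.49 to 49.63 FPKM (log2 -0.34, SE 0.06, edgeR adjusted p = 0.0033), so that untreated KO cells were close to treated WT cells. Cd5l went from 49.51 to 42.68 FPKM and from 38.27 to 29.75 FPKM (log2 -0.25, SE 0.06, edgeR adjusted p = 0.0147), a call that DESeq2 did not make (adjusted p = 0.175). Folr2, Scarb1, Axl and Cd163 had edgeR log2 changes between -0.03 and 0.03, with adjusted p-values of 0.764 to 0.906. Their levels were 389 to 509.88, 43.33 to 46.09, 28.49 to 32.04 and 2.03 to 2.43 FPKM over the 4 libraries. Marco, at 2 to 17 counts, and Timd4 were below the filter on low counts. Of the 8 tested receptors 1 rose, where 12.0% of the 12879 genes did, and 3 fell, where 9.23% did. Their median log2 change was -0.02, against 0 over all genes tested. As pairs of libraries, only Mrc1 differed at least 2-fold, 1 of 8 in WT (1.72% of 10906 genes) and 1 of 8 in KO (1.6%).

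Among relatives of Mrc1, Mgl2 and Clec10a, C-type lectins for galactose-type sugars, rose with IL-4, 28.6-fold and 9.44-fold (SE 0.30 and 0.13 on the log2 scale, edgeR adjusted p = 2.5e-06 and 1.28e-07); they were the only 2 called of 5 tested. Of the other scavenger receptors 2 of 16 were higher, such as Cd36 (log2 0.64, SE 0.07, edgeR adjusted p = 0.000107), and 4 lower, such as Colec12 (log2 -0.54) and Lrp1 (log2 -0.37; edgeR adjusted p = 7.24e-05 and 0.000148). Of the uptake genes 4 of 16 rose and 5 fell: Itgb3 rose 2.94-fold and Mertk fell 1.5-fold (edgeR adjusted p = 3.11e-07 and 6.27e-05). In PM under IFN-gamma, Itgb3 had fallen and Mertk had risen. IFN-gamma was given only to PM, for 12 hours, and IL-4 only to BMDM, for 6 hours. Cytokine, cell type and time therefore cannot be told apart where the 2 responses differ, for Mrc1 as well. The iron exporter Slc40a1 was 3.72-fold lower (edgeR adjusted p = 1.09e-06), 1 of 2 genes of haem and folate handling that fell of 9. Of the linked transcription factors 7 of 16 rose, led by Irf4 (17.1-fold), Tfec (3.14-fold) and Klf4 (2.78-fold), with edgeR adjusted p-values of 1.94e-07, 2.3e-06 and 1.56e-07, and 3 fell. Among markers of other cells, both tested genes of eosinophils, basophils and mast cells rose, with sums of 1.65 and 0.96 FPKM before and 2.8 and 2.14 FPKM after. Monocyte genes were called 1 higher and 2 lower of 5, and endothelial genes 1 higher and 1 lower of 6. The part of these cells in the receptor changes was not tested.

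In BMDM, Cd5l, Folr2 and Mrc1 were called lower in KO in all 5 fits run and Msr1 in 3 of them, and in PM no receptor passed the edgeR test. The edgeR genotype term in PM called 0 of 10 receptors, against 0.0332% of the genes tested, which is 4 genes. Their median log2 difference was -0.35, against 0.01 over all genes. Other lists had similar medians: -0.35 for the 12 macrophage identity genes, -0.35 for 10 other genes of resident macrophages and -0.34 for 9 fibroblast and mesothelium genes, with 0 called in each. The summed macrophage identity level was 11795.51 and 8707.4 FPKM in WT, untreated and treated, and 9813.48 and 7109.14 FPKM in KO. Endothelial genes, mostly Kdr and Vwf, summed to 14.28 and 5.27 FPKM in WT and 21.46 and 10.69 FPKM in KO. The part of these shifts in the receptor differences was not tested. At an unadjusted p below 0.05 the edgeR term held 7 of 10 receptors (1680 of 12052 genes). DESeq2 held 3 of 10 (401 genes) and limma 4 of 9 (1277 of 10670 genes). Of the edgeR 7, Mrc1 and Timd4 were higher in KO (log2 0.41 and 0.70, edgeR adjusted p = 0.245 and 0.318) and the rest were lower. Axl, outside the 7, was also higher (log2 0.59, edgeR adjusted p = 0.408). After adjustment limma called 0 of 9. DESeq2 called none, but it gave no adjusted p-value for Cd5l, Folr2, Marco, Timd4 and Cd163. Cd5l had the widest gap: 7.54 and 5.82 FPKM in WT, untreated and treated, against 2.02 and 2.51 FPKM in KO. Both KO libraries lay below both WT libraries, by counts at 0.268 of WT untreated (exact interval 0.188 to 0.374) and 0.431 treated (0.309 to 0.593). The fitted log2 difference was -1.56 (SE 0.23, edgeR adjusted p = 0.132). Without the low-count filter edgeR called it (adjusted p = 0.0314). With DESeq2 size factors edgeR did not (adjusted p = 0.0925), nor did limma (adjusted p = 0.226). DESeq2 gave Cd5l an unadjusted p of 0.000738 and no adjusted p-value. Scarb1 was at 32.51 and 34.29 FPKM in WT and 25.24 and 22.92 FPKM in KO, without overlap (log2 -0.48, SE 0.10, edgeR adjusted p = 0.233). Folr2 was at 14.04 and 9.68 FPKM in WT and 10.2 and 6.45 FPKM in KO (log2 -0.53, edgeR adjusted p = 0.298), with the treated WT and untreated KO libraries crossing. Stab1 and Msr1 had log2 differences of -0.53 and -0.44 (edgeR adjusted p = 0.298 and 0.335); by counts KO was at 0.619 and 0.617 of WT untreated and at 0.833 and 0.895 of WT with IFN-gamma.

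In BMDM the genotype term called 4 of 8 receptors, all lower in KO, where 5.19% of the genes tested were called. Their median log2 difference was -0.24, against 0 over all genes. Cd5l fell from 49.51 to 38.27 FPKM untreated and from 42.68 to 29.75 FPKM with IL-4 (log2 -0.44, SE 0.06, edgeR adjusted p = 0.00226). Folr2 fell from 509.88 to 389 FPKM and from 490.72 to 393 FPKM (log2 -0.35, SE 0.05, edgeR adjusted p = 0.00187); its WT and KO libraries do not overlap, and IL-4 hardly separates them. Mrc1 fell from 28.07 to 22.19 FPKM and from 266.33 to 214.94 FPKM (log2 -0.32, SE 0.04, edgeR adjusted p = 0.00277). Msr1 fell from 79.23 to 57.49 FPKM and from 55.49 to 49.63 FPKM (log2 -0.33, SE 0.06, edgeR adjusted p = 0.0133), a call that DESeq2 and limma did not make (adjusted p up to 0.136). Stab1 did not pass (log2 -0.16, adjusted p = 0.114), and Scarb1, Axl and Cd163 had edgeR log2 differences of -0.03, -0.06 and 0.09. The fitted differences are all under 1.4-fold, while by counts Cd5l with IL-4 stood at 0.697 of WT in KO (exact interval 0.648 to 0.749). Libraries of a genotype may share an animal, in which case these p-values are too small.

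**Figure D4:**
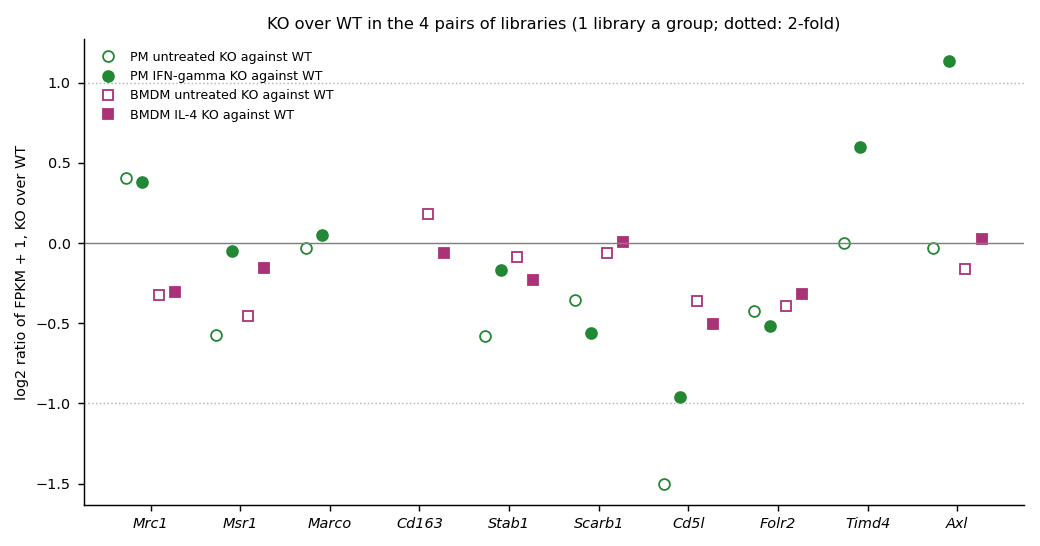
Log2 ratio of FPKM + 1, KO over WT (vertical axis), for each gene in the 4 pairs of libraries; each point is 1 library against 1, and dotted lines mark 2-fold. Cd5l, Folr2, Msr1 and Stab1 lie below 0 in all 4 pairs, Mrc1 lies above 0 in PM and below 0 in BMDM, and Axl reaches 1.14 in PM given IFN-gamma.

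Stromal and endothelial transcripts moved with the BMDM genotype. The summed level of 11 fibroblast and mesothelium genes was 376.19 FPKM untreated and 354.14 FPKM with IL-4 in WT BMDM, and 200.57 and 172.38 FPKM in KO, and 4 of 5 tested genes fell: Col3a1, Col1a1 and Col1a2, fibrillar collagens, were 2.18-, 2.01- and 1.87-fold lower (edgeR adjusted p = 8.53e-06, 1.07e-05 and 1.21e-05). The mesothelium genes Upk3b, Lrrn4 and Wt1 were at 0 in every BMDM library. Endothelial genes were called 1 higher and 2 lower of 6. The macrophage identity genes were called 0 of 12, with a summed level of 15690.66 FPKM in WT and 15893.03 FPKM in KO untreated cells. Thrombospondin (Thbs1), which bridges dying cells to phagocytes, was 1.53-fold lower and the mannose receptor relative Mrc2, which binds collagen, was 1.87-fold lower in KO (edgeR adjusted p = 0.000101 and 0.000339); Hmox1 was 1.22-fold lower (edgeR adjusted p = 0.00586). The part of stromal cells in the receptor differences was not tested.

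Mrc1 was the receptor whose genotype difference was positive in both PM pairs and negative in both BMDM pairs. It was higher in KO in both PM pairs, by count ratios of 1.34 (exact interval 1.25 to 1.43) untreated and 1.34 (1.19 to 1.5) with IFN-gamma. In BMDM it was lower in KO, at 0.791 (0.75 to 0.833) untreated and 0.807 (0.793 to 0.821) with IL-4. The difference of the PM and BMDM genotype effects, a comparison chosen after the data were seen, was 0.71 on the log2(FPKM + 1) scale (SE 0.09, limma adjusted p = 0.135), and 0 of 7 receptors passed the adjusted test, where 0.00993% of the genes tested did; 3 of 7 receptors had an unadjusted p below 0.05, and so did 1420 of 10073 genes. The PM effect alone was log2 0.41 (SE 0.10, edgeR adjusted p = 0.245). Over both cell types limma called 0 of 7 receptors, against 0.00993% of the genes, and 4 of 7 had an unadjusted p below 0.05, as did 845 of 10073 genes. Folr2, Cd5l, Msr1 and Stab1 each had the lower value in KO in 4 of 4 pairs. Folr2 came closest to the threshold (log2 -0.41, SE 0.06, limma adjusted p = 0.203), followed by Cd5l (log2 -0.83, SE 0.18, limma adjusted p = 0.481). Msr1 and Stab1 had log2 differences of -0.31 and -0.27 (limma adjusted p = 0.577 for each).

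As single pairs, KO differed from WT at least 2-fold for 1 of 9 receptors in untreated PM (Cd5l, log2 -1.5, where 0.778% of genes did) and for 1 of 9 in PM given IFN-gamma (Axl, log2 1.14, where 2.45% did). No receptor of 8 reached 2-fold in untreated BMDM (0.403% of genes) or with IL-4 (0.642%). The IFN-gamma response of KO minus that of WT reached 2-fold for 1 of 9 receptors, again Axl (log2 1.17, where 2.34% of genes did); the untreated levels were nearly equal. Timd4 followed with 0.60 on the same scale, from 125 counts in WT and 200 in KO. The Axl count ratio of KO to WT after IFN-gamma was 2.21 (exact interval 2.15 to 2.28), and that of Timd4 was 1.61 (1.28 to 2.03). For IL-4 the KO response minus the WT response reached 2-fold for 0 of 8 (0.688% of genes). With 1 library a group none of these pair sizes has a test between cultures, and the comparisons of a cell type share libraries.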

How the data were processed

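RNA-seq libraries of 8 macrophage cultures, 1 per group, were analysed from 1 table each. The authors aligned and counted with Bowtie2 2.2.5 and RSEM (version not given in the sources used here) on mm10, per the submitters' processing notes. Per the file headers, the deposited expected counts are estimates per Entrez gene, whole within 0.005 for 70.1% to 77.8% of genes. The deposited FPKM values are scaled to gene length and total, with no scaling between libraries. Genes absent from a table were set to 0; tables list counts above 0 only. Symbols came from RefSeq for 18076 genes, 42 kept the deposited symbol and 7 had none.

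Expected counts were rounded and fitted with edgeR 4.0.16 (R 4.3.3; quasi-likelihood, TMM scaling, filterByExpr on the tested factor) with additive genotype and treatment terms in each cell type; the cell type term used untreated libraries and genes listed in both types. An SE is the size of the log2 change over the root of its F statistic. DESeq2 1.42.0 and limma 3.58.1 were alternatives. For KO against WT over both cell types, limma tested the 4 pair differences of log2(FPKM + 1) in genes averaging 1 FPKM or more. Pairs of libraries were compared as log2 ratios of FPKM plus 1, with 2-fold as a size, without a test. Poisson and conditional binomial intervals are exact for independent counts, at 95%, and cover counting error only, not variation between cultures. PCR copies are not independent molecules, so where they are counted these intervals are too narrow. The edgeR and DESeq2 fits were run on simulated counts of independent libraries with a treatment effect. The limma test of pair differences was run on simulated differences. The simulated counts held no genotype effect, no shared animals and no response that differed by genotype. Limma on log2(FPKM + 1) within a cell type was not simulated.

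The receptors, the gene lists and the tests were chosen with earlier results of these data known. Text names all receptors, up to 3 called genes of each list with the largest change, and the 3 nearest profiles of a receptor; Mertk under IFN-gamma was added after its values were seen. Results for a few listed genes and 1 motif are not reported here.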

Additional observations from a re-analysis of the deposited data

Results flagged for a closer look

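Each value below is a log2 ratio of FPKM + 1 between single libraries, flagged because it pointed opposite ways in 2 groups. The differences were not tested between cultures, except where a test is named.

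Mrc1 in KO against WT averaged 0.392 over the 2 PM pairs and -0.317 over the 2 BMDM pairs. The limma test of that difference gave an adjusted p = 0.135. This flag required the 2 pairs of each cell type to share a sign, so their agreement adds no evidence. In PM the IFN-gamma response of Msr1 was -0.477 in WT and 0.046 in KO, that of Cd5l was -0.324 and 0.217, and that of Scarb1 was 0.075 and -0.134. In BMDM the IL-4 response of Cd163 was 0.074 in WT and -0.169 in KO, that of Folr2 was -0.055 and 0.015, and that of Axl was -0.094 and 0.093.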

How the results depend on the processing

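No paired analysis by replicate number was possible because every group holds 1 replicate, so no replicate numbers could pair libraries; the genotype and treatment terms are instead adjusted for each other, and limma tested the 4 KO and WT pairs matched by cell type and treatment. Leaving out a replicate would leave out a group. Alternatives were DESeq2 size factors, no filter on low counts, DESeq2, limma on log2(FPKM + 1), other pseudocounts, other minimum levels, median rescaling, TMM-scaled CPM and a 1.5-fold limit. Of the log2 changes of named genes, 598 stayed on the same side of the threshold, 58 lost the call, 2 gained it and 5 changed sign. The sign changes were Cd5l under IFN-gamma with DESeq2 (0.048), Scarb1 under IFN-gamma with limma (-0.029), Folr2 and Axl under IL-4 with limma (-0.02 and -0.00026) and Marco for the PM genotype without a filter (-0.003); none of the 5 was called in any fit. Of the pair ratios, 325 moved by less than the counting interval and 15 by more.

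Of 100 alternative counts 18 moved by over 1.5 times. With DESeq2 the genes called were 2149 for IFN-gamma (3873 with edgeR), 1091 for IL-4 (2731), 4535 for cell type (7026), 154 for the BMDM genotype (669) and 36 for the PM genotype (4). For the BMDM genotype 1253 genes were called without a filter and 245 with limma. For the PM genotype 17 were called with DESeq2 size factors, 52 without a filter (with 1 receptor, Cd5l) and 0 with limma; higher calls were 3 of the 4, 26 of 52 without a filter and 17 of 36 with DESeq2. For the cell type term limma put 68.0% of calls higher, while edgeR called 3513 genes higher and 3513 lower. The PM minus BMDM genotype effect, added after the data were seen, called 1 gene, 0 with a pseudocount of 0.1 and 4 with CPM. At 1.5-fold, 5 receptors differed in the KO response of PM, 3 between KO and WT PM given IFN-gamma, and 2 in the difference of PM responses. Between KO and WT PM given IFN-gamma, 2 differed 2-fold with a pseudocount of 0.1 and 2 with CPM. The cause of these shifts was not tested. Depth limits Timd4, Cd163 in PM and Marco in BMDM, which rest on 1 to 17 counts in some libraries.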

Other observations

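The deposited length of Msr1 differed between libraries, from 2179.53 bases in untreated KO PM to 2426.42 bases in treated WT PM, and from 2264.04 to 2340.17 bases in BMDM. The tables list 2 transcripts for Msr1, and this length enters its FPKM. By counts alone the KO to WT ratio of Msr1 was 0.617 in untreated PM (exact interval 0.565 to 0.673) and 0.73 in untreated BMDM (0.696 to 0.767).

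Sequences of the 2 receptors without an entry in the promoter table, Msr1 and Scarb1, were not analysed here.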
